A study of Homo sapiens with 6 samples.

Results

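Of the 770 genes on the panel, 203 gave a mean signal under 15 over all 6 samples and are described here as silent in the NIH:OVCAR-3 line. They were chosen on that mean alone, from all rows but the positive and negative control probes, with symbols beginning COL, LAM, ITG, ADAM, BAI or GPR left out (16 more genes under 15 belonged to those families). The remaining 551 genes had a mean of at least 15. NIH:OVCAR-3 is an established human ovarian cancer line of the high-grade serous type, and it had been cultured, sparse or dense, for 1 week with 20% serum. Each density (low and high) gave 3 samples, and 100 ng of RNA was loaded for each. The 2 groups shared the line and the medium and carried no genetic change or drug, and the data come from this 1 line. The panel reads genes of tumor progression by hybridization, counting a fluorescent barcode for each captured RNA molecule, and its signal is that count after scaling to 30 reference genes. Whether the 3 samples of a density came from separate cultures was not stated, so the spread behind the p-values may be technical in origin. The main fit (limma) took most of that spread from the whole panel (prior degrees of freedom 51.2). The spread among the samples of a single gene weighed little in its p-value.

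A solid tumor holds many cells that are not cancer cells. Endothelial cells line its vessels and depend on the VEGF and angiopoietin receptors, leukocytes enter it along chemokine gradients, and fibroblasts lay down and remodel its matrix. A panel for tumor progression therefore carries probes for all of these lineages. A carcinoma line in culture holds none of these neighbours, and the level of their genes in it is the level of the cancer cells themselves plus the background of the probes.

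The silent genes were divided by their best known site of expression or function, from general knowledge of the genes. The largest class was that of leukocyte genes, with 38 members (18.7%). Stromal and matrix genes made up 35 members (17.2%) and endothelial and vascular genes 25 (12.3%). Smaller classes were growth factors, morphogens and their regulators (20), neural and excitable cell genes (18), cytokines and chemokines (16), genes of liver, plasma and other epithelia (13), transcription factors of development and of epithelial-mesenchymal transition (EMT) (12), proteases and inhibitors (10), muscle and mural cell genes (6), and genes of other functions (10).

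The line itself gave high signal for listed epithelial markers. All 20 genes of an epithelial marker list on the panel lay above the background limit in all 6 samples, with a median level of 1810 and none silent. EPCAM, the epithelial cell adhesion molecule, ranged from 2910 to 3150. The keratins KRT14 (mean 7.26) and KRT1 (3.68), not on that list, were silent. Of the 740 genes other than reference genes, 203 (27.4%) were silent, against 14 of 24 endothelial genes (58.3%), 13 of 21 leukocyte genes (61.9%), 24 of 41 stromal genes (58.5%), 5 of 9 neural and glial genes (55.6%) and 2 of 9 mural and muscle genes (22.2%) of the marker lists. Among ligands of angiogenesis and growth, 10 of 27 were silent (37.0%), and among matrix proteases and their inhibitors 10 of 24 (41.7%). These lists were written with earlier results of the data known, and the shares are a description.

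**Figure D1:**
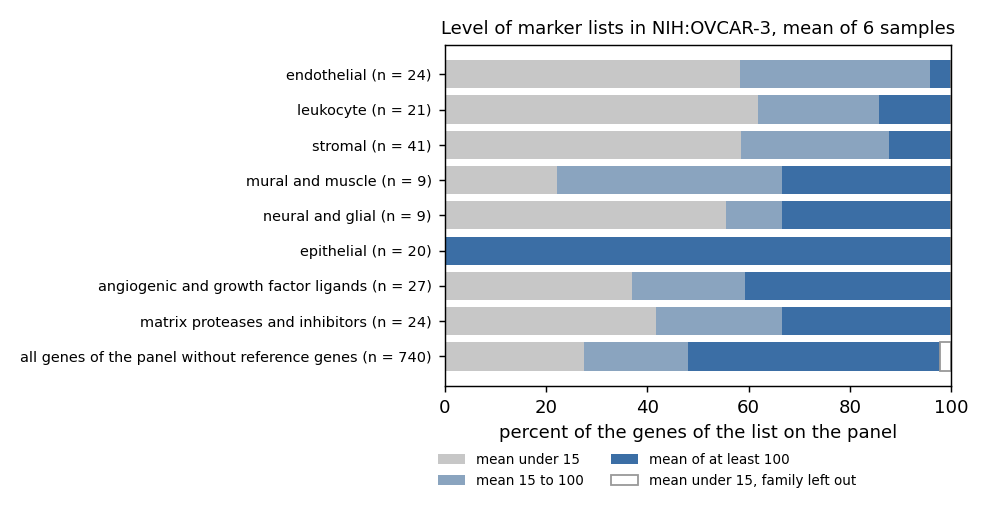
Share of the genes of each marker list on the panel (percent, horizontal axis) by mean signal over the 6 samples, with the number of genes per list in parentheses and the whole panel without reference genes in the bottom bar. All 20 epithelial genes had a mean of at least 100, while 58.3% of endothelial, 61.9% of leukocyte and 58.5% of stromal genes had a mean under 15. Silent genes made up 27.4% of the panel, a share that leaves out the 16 genes under 15 of the excluded families.

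The floor of the assay was set by 8 negative control probes, which match no human transcript. Their mean was 6.0 to 10.0 counts per sample, with single probes between 2 and 17. The mean plus 2 SD of these probes served as the background limit, which was 10.3 to 19.3 counts across the samples. The silent genes had a median of 6 to 8 counts per sample and a highest count of 22 to 25. The weakest spike-in control was read at 32 to 57 counts. Total counts per sample ranged from 554859 to 696313, of which all 203 genes together took 0.238% to 0.265%.

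Averaged over the 6 samples, the silent genes ran from 3.01 to 14.96 with a median of 7.51, in normalized signal. On the same scale the 8 negative control probes ran from 3.5 to 11.53 with a median of 9.15. Of the 203 genes, 161 lay within the range of the control probes, 6 lay below it and 36 above it. In bands of the mean, 34 genes were under 5, 112 between 5 and 10, and 57 between 10 and 15. Between replicates of a density the counts of the silent genes scattered with a chi-square of 1.03 per degree of freedom at low and 1.14 at high density, where counting noise alone gives a value near 1. The 8 negative control probes, far fewer, gave 0.816 at low and 0.43 at high density. Across the 203 genes, the mean at low density and the mean at high density gave r = 0.61 (Spearman 0.67), a description over genes read in the same libraries.

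In single samples, between 43.8% and 73.4% of the silent genes were at or below the mean of the negative controls. The number above the background limit was 18, 3 and 33 in the low density samples, against 12, 5 and 31 in the high density ones. The fewest were found in low density replicate 2, where the limit was highest at 19.3 counts, and the limit was lowest, 10.3 counts, in high density replicate 3. Pooled by density, 54 of 609 values (8.87%) were above the limit at low and 48 of 609 (7.88%) at high density. Without low density replicate 3 the share at low density was 5.17%, and without high density replicate 3 the share at high density was 4.19%. Of the 203 genes, 141 (69.5%) exceeded the limit in no sample, 36 in 1, 14 in 2, 10 in 3 and 2 in 4, and none did so in 5 or 6 samples. Genes never above the limit were not detectable at this depth, which does not show that they were absent.

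**Figure D2:**
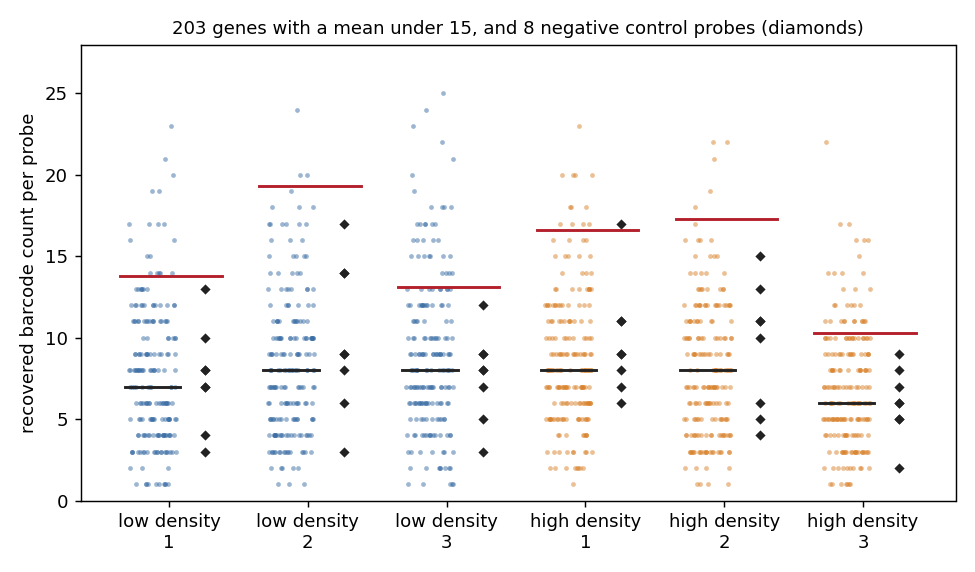
Recovered barcode count of each silent gene (dots, blue for low and orange for high density) and of the 8 negative control probes (black diamonds) in the 6 samples, with the median of the genes (black line) and the background limit of the sample (red line, mean plus 2 SD of the control probes). The genes overlapped the control probes in every sample, with medians of 6 to 8 counts and limits of 10.3 to 19.3 counts.

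Receptors that define the endothelium were among the silent genes. The angiopoietin receptor TEK was the highest of the silent endothelial list genes, at 14.57, 9.82 and 13.15 at low and 14.94, 9.42 and 17.06 at high density, and the values of the 2 densities overlapped. TEK was above the limit in 2 low density samples and 1 high density sample. TIE1, the orphan receptor that acts with TEK, read 2.91, 2.68 and 3.76 at low and 1.99, 7.33 and 7.31 at high density. Its mean of 4.33 was within the range of the control probes, and it passed the limit in no sample. The VEGF receptors FLT1 and FLT4 had means of 3.64 and 7.21 and passed the limit in no sample, whereas KDR, the main VEGF receptor of endothelium, was not silent, at 18.8 to 40.9 and above the limit in all 6. The guidance receptor ROBO4 (6.36), the adhesion molecules SELE (5.68) and VCAM1 (7.4), the scavenger receptor STAB2 (5.91) and the sialomucin EMCN (4.55) also passed it in no sample. RAMP2, a partner of the adrenomedullin receptor, had 11.66, 15.18 and 6.58 at low and 19.92, 8.37 and 13.41 at high density, with 2 high density samples above their limits. The Notch ligand DLL4 had a mean of 9.92 and passed in none. Of the 25 genes of the endothelial and vascular class, 20 exceeded the limit in no sample, and the median mean was 6.6.

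Some endothelial markers stood just outside the threshold. PECAM1, the platelet and endothelial adhesion molecule, had a mean of 15.67, and CD34 one of 15.7, and each was above the limit in 3 of 6 samples. In all, 6 of the 24 endothelial genes exceeded the limit in all 6 samples. They were KDR (mean 32.7), the matrix protein MMRN2 (38.3), the sphingosine-1-phosphate receptor S1PR1 (34.2), the nitric oxide synthase NOS3 (30.7), the secreted protein EGFL7 (99.4) and the transcription factor SOX17 (686).

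Leukocyte genes had the lowest median of all classes, at 6.3, and 31 of the 38 exceeded the limit in no sample. PTPRC (CD45), the phosphatase present on nearly all nucleated blood cells, had a mean of 4.13. CD163, the haptoglobin-hemoglobin scavenger receptor of macrophages, read 1.00, 1.79 and 5.64 at low and 10.96, 5.23 and 1.22 at high density, below the limit in every sample. The mast cell tryptases TPSB2 and TPSD1 (means 3.46 and 4.6), the neutrophil protease CTSG (4.6), the chemokine receptor CCR2 (3.92), the macrophage receptors MRC1 (6.3) and VSIG4 (7.5) and the NADPH oxidase subunit CYBB (8.67) were all below the limit in every sample. CXCR2, a receptor for neutrophil chemokines, was at 16.51, 13.39 and 16.91 at low and 12.95, 7.33 and 10.97 at high density. All of its low density values exceeded all high density values, with 2 of them above the limit, but the difference of 0.57 ± 0.32 on the log2 scale (SE) did not pass the test (limma, adjusted p = 0.147). Of the 21 leukocyte list genes, 5 exceeded the limit in all 6 samples: RAC2, SYK, PIK3CD, CXCR4 and ARHGDIB, signaling genes and a chemokine receptor.

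Of the cytokines and chemokines, which include signals that recruit such cells, 16 were silent, with a median of 7.5. At least 9 others on the panel were not, among them the chemokines CX3CL1 (mean 241), CXCL8 (92.6) and CXCL10 (18.3) and the cytokines IL18 (148) and TNF (28.6). The chemokines CCL8 (3.73), CXCL13 (4.1), CCL7 (4.47), CCL11 (6.28), CXCL11 (6.5) and CXCL12 (6.99) and interferon gamma, IFNG (5.3), were above the limit in no sample. Of the inflammatory cytokines, IL1B had 7.77, 10.72 and 15.03 at low and 14.94, 12.56 and 19.50 at high density. IL6 had 12.63, 9.82 and 22.54 at low and 14.94, 7.33 and 10.97 at high density, so that a single low density sample stood above its limit. Neither passed the test between densities (adjusted p = 0.236 and 0.391).

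Promoter sequences of the silent genes were read from the RefSeq table for GRCh38.p14, as windows from 250 bases before to 50 bases after an annotated start. A comparison of base composition over all silent genes is void, because a promoter was matched for 136 of 203 (67.0%), under the 80% required, and for 75.0% of the other panel genes. Matching reached that share for the cytokines and chemokines (13 of 16) and for the growth factors (17 of 20). In the cytokine class the windows held a median of 4.7 CG dinucleotides, averaged over the start sites of a gene, against 14.0 in all 27305 genes of the table. The letters TATAAA were present on either strand in a window of 8 of the 13 cytokine genes (61.5%), against 14.0% of all genes. In the growth factor class the median was 12.0 CG and the letters were found for 5 of 17 genes (29.4%). The letters were also found for cytokines that were not silent, CXCL8, TNF and TNFSF10, but not for CXCL10 and TNFSF13. The CG content of these was likewise under 14.0, with 4 in CXCL8, 11 in TNF, 3 in TNFSF10, 3 in CXCL10 and 8 in TNFSF13. Stretches of 60 bases from 4 silent cytokine promoters are shown as examples with the letters 30 to 35 bases before a start, with TATAAA in capitals on the strand of the gene. Elsewhere on that strand the letters lay 30 bases before a start in IL1RN, 42 in CXCL11, 239 in IL1A, and 181 and 151 before the starts of CXCL13. The capitals begin 30 bases before the start in CCL7 and CCL8, 31 in IFNG and 35 in CXCL13. They are chr17:34270163-34270222 (plus strand) for CCL7, chr17:34319377-34319436 (plus) for CCL8, chr12:68159740-68159799 (minus) for IFNG and chr4:77605757-77605816 (plus) for CXCL13.
CCL7: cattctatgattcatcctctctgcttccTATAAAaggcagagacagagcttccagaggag
CCL8: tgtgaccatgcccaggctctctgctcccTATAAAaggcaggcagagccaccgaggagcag
IFNG: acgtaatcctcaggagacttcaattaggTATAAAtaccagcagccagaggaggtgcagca
CXCL13: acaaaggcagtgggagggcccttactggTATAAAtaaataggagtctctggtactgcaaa

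The windows of 2 lineage markers are printed, with each CG in capitals, to show how far promoters of silent genes differed in CG content. The PTPRC window at chr1:198638790-198639089 (plus strand) had 33.7% G and C and 1 CG. The FLT1 window at chr13:28495079-28495378 (minus strand) had 73.3% and 33. Both genes were read at the level of the control probes, and the letters carry no information here on the state of the DNA.
PTPRC: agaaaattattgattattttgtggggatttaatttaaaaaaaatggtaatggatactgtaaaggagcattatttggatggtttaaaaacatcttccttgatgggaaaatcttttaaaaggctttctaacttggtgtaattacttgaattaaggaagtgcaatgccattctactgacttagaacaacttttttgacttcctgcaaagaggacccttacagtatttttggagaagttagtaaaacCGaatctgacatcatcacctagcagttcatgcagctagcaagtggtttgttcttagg
FLT1: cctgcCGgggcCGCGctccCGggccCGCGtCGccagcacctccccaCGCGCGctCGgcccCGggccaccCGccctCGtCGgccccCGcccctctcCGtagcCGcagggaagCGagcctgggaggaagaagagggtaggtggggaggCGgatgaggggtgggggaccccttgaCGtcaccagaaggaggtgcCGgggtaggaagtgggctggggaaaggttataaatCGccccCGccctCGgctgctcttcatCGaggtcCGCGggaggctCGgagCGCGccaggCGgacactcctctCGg

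Fibroblast and matrix genes formed the second largest class, with a median of 8.3, and 26 of the 35 exceeded the limit in no sample. Decorin, DCN, a small leucine-rich proteoglycan of collagen fibrils, had 5.83, 3.57 and 12.21 at low and 8.97, 11.51 and 10.97 at high density. The related proteoglycan lumican, LUM, had 7.77, 10.72 and 8.45 at low and 6.97, 3.14 and 12.19 at high density. Both overlapped between densities and stayed below the limit, as did ASPN (7.09), OGN (5.31), FMOD (9.12), the matricellular protein POSTN (7.7) and the fibroblast cadherin CDH11 (4.48). PDGFRB, the PDGF receptor of fibroblasts and pericytes, was 10.69, 8.93 and 9.39 at low and 5.98, 6.28 and 2.44 at high density. These groups did not overlap, and the difference of 0.93 ± 0.41 on the log2 scale missed the threshold (adjusted p = 0.0636). It passed without scaling (adjusted p = 0.0297), with scaling to the positive controls (0.0292) and without high density replicate 2 (0.0445). All PDGFRB values were below the limit. TNN, a tenascin, had 16.51, 5.36 and 15.97 at low and 9.96, 19.88 and 20.72 at high density, and was above the limit in 4 of 6 samples with no order between densities. Of the 41 stromal list genes, 12 exceeded the limit in all 6 samples, among them the matrix genes CCDC80 (414 to 1010), NID2 (403 to 449), TNC (292 to 552) and FBLN1 (232 to 355).

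Transcription factors that repress epithelial genes were divided. ZEB2 had the lowest mean of all 203 genes, at 3.01, with 3.89, 1.00 and 4.70 at low and 1.99, 5.23 and 1.22 at high density. ZEB1 (5.61) and SNAI2 (3.49), repressors of E-cadherin, were likewise below the limit in every sample. TWIST2 read 15.54, 14.29 and 15.03 at low and 12.95, 12.56 and 17.06 at high density, at the limit and with overlap between densities. Its relative TWIST1 was not silent, at 71.4 to 98.2. Members near the lower end also included APOH, a plasma apolipoprotein (mean 3.05), and MYH11, the smooth muscle myosin heavy chain (3.12).

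Among growth factors and morphogens, the median was 7.8 and 10 of 20 genes were above the limit in no sample. The silent ligands included HGF, the ligand of MET (5.62), ANGPT2, the antagonist of TEK signaling (4.93), the activin subunit INHBA (4.59) and NODAL (5.6). IGF1 had 9.71, 17.86 and 10.33 at low and 15.94, 9.42 and 15.85 at high density, and ANGPTL4, a secreted inhibitor of lipoprotein lipase, had 11.66, 11.61 and 14.09 at low and 11.95, 14.65 and 8.53 at high density. BMP5, at 12.63, 8.93 and 15.03 at low and 12.95, 6.28 and 8.53 at high density, also overlapped. Other ligands of the same list were well above background, with BMP7 at 5200 to 6930, TGFB2 at 2080 to 2430 and VEGFA at 576 to 1270, so 16 of 27 ligands exceeded the limit in all 6 samples.

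Silent muscle and mural genes were few and uneven. Their median of 11.2 and their 19.4% of values above the limit were the highest of all classes. MYH11 was at 1.00, 5.36 and 3.76 at low and 2.99, 3.14 and 2.44 at high density, and the smooth muscle calponin CNN1 had a mean of 3.67. ENO3, the muscle form of enolase, was above the limit in all 3 low density samples, with 16.51, 17.86 and 13.15 against 10.96, 16.74 and 13.41 at high density, and the 2 groups overlapped (adjusted p = 0.637). Of the 9 mural and muscle list genes, 5 exceeded the limit in all 6 samples, among them CALD1 (1490 to 2120), MYLK (470 to 572) and CAV1 (122 to 255). In the neural and excitable class (median 8.5) the guidance receptor DCC had 10.69, 12.50 and 4.70 at low and 14.94, 9.42 and 14.63 at high density. SEMA3E, a semaphorin, had a mean of 11.08 and RELN, the reelin gene, one of 8.88, each above the limit in 1 sample, and neither passed the test (adjusted p = 0.346 and 0.326). The neural adhesion genes NCAM1 (1080 to 1230) and NRCAM (297 to 512) were not silent.

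Proteases and inhibitors had a median of 9.7, and 5 of 10 were above the limit in no sample. Stromelysin, MMP3, had 11.66, 14.29 and 9.39 at low and 22.91, 10.46 and 15.85 at high density, with 2 high density samples above the limit (adjusted p = 0.328). KLK3, prostate-specific antigen, ranged from 3.89 to 16.9 and was above the limit in 3 samples (adjusted p = 0.118). The collagenase MMP13 (5.13), TIMP4 (5.48) and the liver serine protease TMPRSS6 (5.93) were below it throughout. Of the 24 genes on the list of matrix proteases and inhibitors, 9 exceeded the limit in all 6 samples. Among them were CTSL (1070 to 1230), TIMP2 (226 to 879) and HPSE (226 to 668).

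Between densities, 11 of the 203 silent genes (5.42%) passed an adjusted p of 0.05 in a limma fit of log2(signal + 1) over all 740 genes, against 332 of 740 in that fit (44.9%). Higher at low density were 2 (0.985%), against 25.4% of the panel, and lower at low density 9 (4.43%), against 19.5%. At an unadjusted p under 0.05 there were 19 of 203, against 364 of 740. Groups did not overlap for 35 genes (17.2%, against 49.3% of the panel), of which 8 were higher at low density (3.94%, against 27.0%) and 27 lower (13.3%, against 22.3%). These shares were set side by side without a test of their difference. The silent genes were chosen for a low mean, where counting noise is large beside the signal and log2(signal + 1) understates changes. Their lower shares are therefore not read as a property of these genes. The rule left out genes near the controls at 1 density and well above them at the other, whose mean was over 15, such as PIK3CG (8.35 at low, 36.4 at high density) and MMP2 (30.0 and 10.4).

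The median difference over the 203 genes was -0.09 on the log2 scale, with 85 genes higher and 118 lower at low density, against 0.01 over all 740 genes and -0.13 over the 8 negative control probes. Of those probes 6 were lower at low density and none was called when they were added to the fit (smallest adjusted p = 0.143). The sign of the median turned with the scaling. It was 0.09 without scaling and 0.03 with scaling to the positive controls, which moved the median of all genes to 0.22 and 0.15, so that the silent genes lay at -0.13 and -0.12 relative to it (-0.11 with reference gene scaling). The direction of the calls moved too, with 6 of 8 called genes higher at low density without scaling and 5 of 10 with the positive controls.

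**Figure D3:**
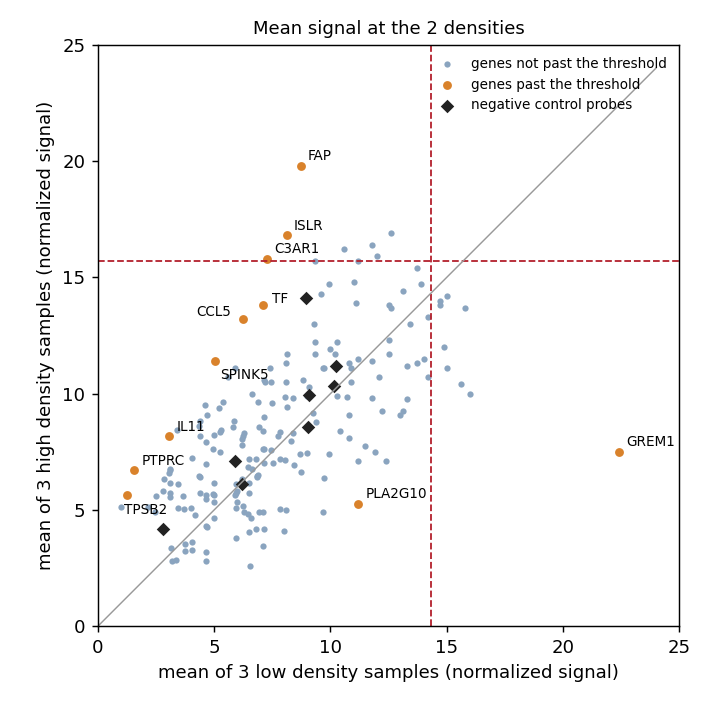
Mean signal of each silent gene over the 3 low density samples (horizontal axis, normalized signal) against the 3 high density samples (vertical axis), with genes past an adjusted p of 0.05 in orange and named, the 8 negative control probes as black diamonds, the background limit of each density as dashed red lines and equal levels as the grey line. GREM1 (22.4 at low, 7.51 at high density) and FAP (8.72 and 19.8) stood farthest from the equal line, and 7 of the 11 genes past the threshold lay below both limits.

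GREM1, a secreted BMP antagonist, was the silent gene closest to the threshold of 15 and had the smallest adjusted p. Its signal was 22.34, 21.43 and 23.48 in the low density samples, against 5.98, 10.46 and 6.09 in the high density ones. All 3 low density values were above their limits and all 3 high density values below, with no overlap. The difference was 1.50 ± 0.31 on the log2 scale (SE, n = 3 and 3, adjusted p = 4.6e-05 by limma). Since the high density level was at background, the ratio was at least 1.43-fold, the low density mean of 22.4 ± 1.03 (SD) over the high density limit of 15.7. The RefSeq table gave GREM1 2 start sites. The window of the upstream start, chr15:32717754-32718053 (plus strand), is printed because GREM1 was above background at a single density, with each CG in capitals; it had 77.0% G and C and 42 CG.
GREM1: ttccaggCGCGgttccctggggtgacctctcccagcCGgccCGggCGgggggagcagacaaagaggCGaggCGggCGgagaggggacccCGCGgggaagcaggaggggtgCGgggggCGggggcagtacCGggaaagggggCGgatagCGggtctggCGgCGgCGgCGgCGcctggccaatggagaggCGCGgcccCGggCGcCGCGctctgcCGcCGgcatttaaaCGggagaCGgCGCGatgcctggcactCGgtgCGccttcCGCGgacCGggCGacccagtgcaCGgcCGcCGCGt

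FAP, a cell surface serine protease of activated fibroblasts, had the opposite pattern. Its signal was 8.74, 8.04 and 9.39 in the low density samples, against 17.93, 21.98 and 19.50 in the high density ones. The 3 high density values were all above their limits, the 3 low density values all below, and the groups did not overlap. The difference was -1.10 ± 0.30 on the log2 scale (adjusted p = 0.00204), and the ratio was at least 1.38-fold in favour of high density, against the low density limit of 14.3. GREM1 and FAP passed the threshold in all 16 of the other settings tried. The RNA was extracted from whole cultures, so fewer cells carrying an RNA and less of it per cell cannot be told apart.

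The remaining calls were weaker and rested on values at or near the control probes. ISLR, a leucine-rich repeat protein of stromal cells, had 7.77, 6.25 and 10.33 at low and 7.97, 23.02 and 19.50 at high density (-0.87 ± 0.35, adjusted p = 0.0367), above the limit in 2 samples. C3AR1, the receptor for complement C3a, had 10.69, 3.57 and 7.51 at low and 7.97, 12.56 and 26.82 at high density (-0.97 ± 0.38, adjusted p = 0.0349), above it in high density replicate 3 alone. In both genes high density replicate 1 lay within the low density values. Both calls were lost without low density replicate 2, without high density replicate 2 and without high density replicate 3, while ISLR was lost also without low density replicate 1. The C3AR1 call was lost too in limma without the mean trend (adjusted p = 0.234) and with the methods' t-test (adjusted p = 0.328). ISLR was no steadier, being called in 7 of 16 other settings against 9 for C3AR1.

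No fold is given for ISLR and C3AR1. The other 7 called genes had both group means below the limits, and none is given for them either. PTPRC had 1.00, 1.79 and 1.88 at low and 8.97, 6.28 and 4.88 at high density, without overlap, and all 6 values were within or below the 2 to 17 counts of the control probes (-1.58 ± 0.53, adjusted p = 0.0117). A value of 1 is the lowest the table lists. TPSB2, the tryptase, had 1.00, 1.79 and 1.00 at low and 8.97, 3.14 and 4.88 at high density (-1.48 ± 0.57, adjusted p = 0.0305). IL11, an interleukin of the IL6 family, had 1.00, 5.36 and 2.82 at low and 7.97, 10.46 and 6.09 at high density (-1.30 ± 0.48, adjusted p = 0.0233). None of these 3 exceeded the limit in any sample.

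SPINK5, a serine protease inhibitor of skin, had 7.77, 3.57 and 3.76 at low and 13.95, 9.42 and 10.97 at high density (adjusted p = 0.0198) and likewise never exceeded the limit. The chemokine CCL5 had 6.80, 5.36 and 6.58 at low and 17.93, 9.42 and 12.19 at high density (adjusted p = 0.0325). TF, the transferrin gene, had 4.86, 8.93 and 7.51 at low and 12.95, 11.51 and 17.06 at high density (adjusted p = 0.0345). In CCL5 and TF a single high density sample passed the limit, and the groups did not overlap. PLA2G10, a secreted phospholipase, was the other gene higher at low density, at 13.60, 11.61 and 8.45 against 8.97, 3.14 and 3.66 (1.06 ± 0.41, adjusted p = 0.0285), with overlap and a single low density sample above the limit.

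Outside GREM1 and FAP, each of these calls was lost when some single sample was left out. PTPRC was lost without high density replicate 1 (adjusted p = 0.0621) and held in 13 of 15 other settings. TPSB2 was called in 5 of 15, ISLR in 7, CCL5 in 8, C3AR1, IL11, PLA2G10 and TF in 9 and SPINK5 in 10 of 16. With the mean of the negative controls subtracted and a floor of 1, the differences of PTPRC, TPSB2 and IL11 were 0. APOH, at 1.00 in all low density samples and 10.96, 3.14 and 1.22 at high density, was among the 5 largest differences (-1.26 ± 0.64) and did not pass (adjusted p = 0.111), but did without high density replicate 3 (0.0219).

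**Figure D4:**
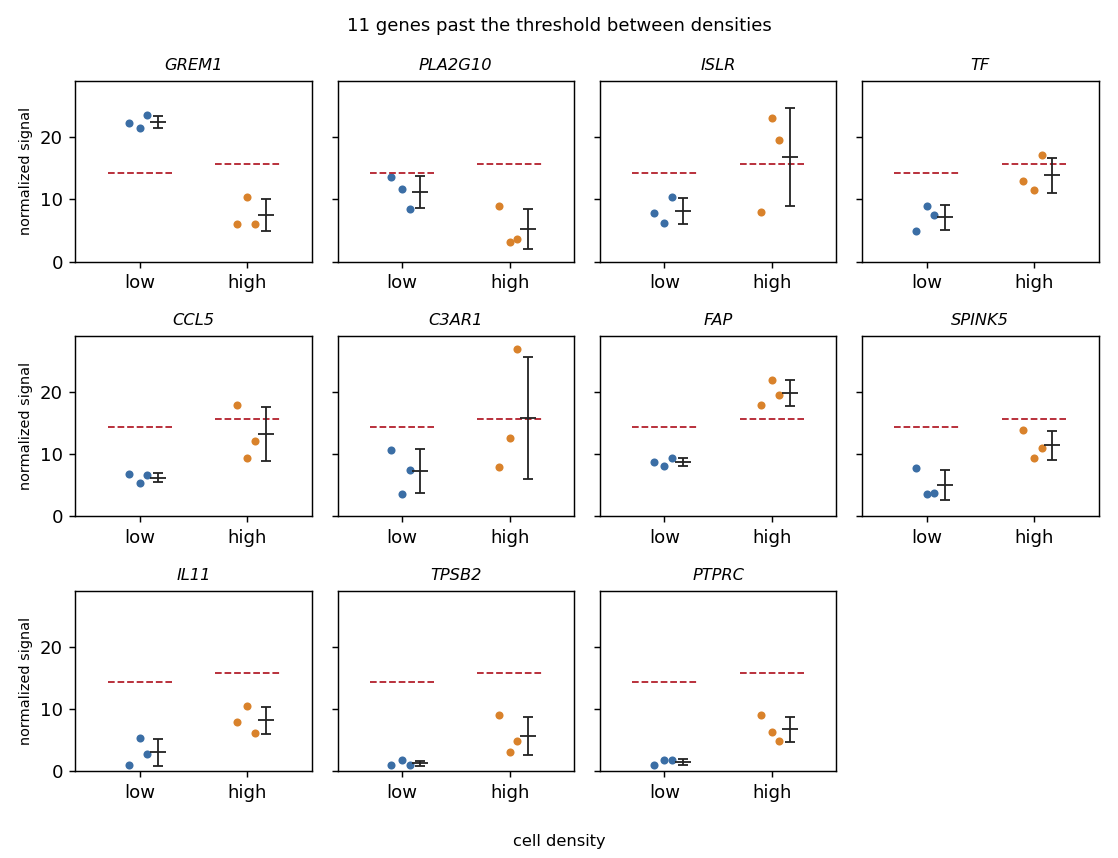
Normalized signal (vertical axis) of the 11 silent genes past the threshold, by density, with each sample as a dot, mean and SD in black and the background limit of the density as a dashed red line. GREM1 lay above the limit in the 3 low density samples alone and FAP in the 3 high density samples alone, while PTPRC, TPSB2, IL11 and SPINK5 were below it in all samples.

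By class, the calls were spread thinly. Leukocyte genes had 3 of 38 lower at low density, stromal and matrix genes 2 of 35, cytokines and chemokines 2 of 16, and proteases and the liver and plasma class 1 each, while the growth factor class and the other functions had 1 each higher. None of the 25 endothelial and vascular, 18 neural, 12 transcription factor or 6 muscle and mural genes was called. The share over all silent genes was 11 of 203 (5.42%), against 332 of 740 on the panel (44.9%). In classes of this size such counts do not set 1 class apart from another. Median differences by class ran from -0.28 for cytokines and chemokines to 0.1 for growth factors.

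The genes nearest to the threshold of the choice differed little in level. Just inside it were TNN (14.73), ENO3 (14.77) and GREM1 (14.96), and just outside COMP (15.3), PRKCB (15.34) and CEACAM1 (15.46).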

How the data were processed

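The authors deposited 784 probes (770 genes, 8 negative and 6 positive controls) for 3 low and 3 high density samples. Deposited gene values were a signal, counts multiplied by a factor per sample that set the geometric mean of 30 reference genes to 383.27 to 383.28; control probes were unscaled counts. This scaling was inferred from the values, and its software is not given in the sources used here. Counts were recovered by dividing by the step of each sample, within a tolerance of 0.1 for values up to 100. The background limit of a sample was 2 SD above the mean of its negative controls; multiplied by the step and averaged over 3 samples, it served for group means. All 740 genes other than reference genes were fitted on log2(value + 1), which understates changes of low genes, with limma 3.58.1 in R 4.3.3 (empirical Bayes with a mean trend, two-sided, Benjamini-Hochberg over 740, threshold 0.05, no filter), after a test on simulated data. An exact permutation test of 3 against 3 cannot go below p = 0.1. An "at least" ratio is the mean of the higher group over the limit of the other. Members, lists and classes were chosen with earlier results of these data known, and classes were assigned after the members were known. Genes were named by rule: defining lineage markers, all calls, the 5 largest differences, neighbours of the threshold, the 3 lowest, the 3 highest per list, and genes above the limit at a single density; other examples were chosen after their values were seen, and 1 gene that the rule named is not reported here. Other scalings, pseudocounts, filters and tests were tried, and each sample was left out. A medium density was not analysed here.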

Additional observations from a re-analysis of the deposited data

How the results depend on the processing

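The number of silent genes was 146 with a threshold of 10, 242 with 20, 150 where every sample had to be under 15, and 200 to 205 without each sample. With the mean of the negative controls as the limit, 43.7% of values at low and 40.1% at high density were above it. With the limit 2 SD above that mean, leaving out each sample gave 5.17% to 12.6% at low and 4.19% to 10.6% at high density, the lowest without replicate 3 of each. Calls among the silent genes were 11. They were 4 with the negative control mean subtracted (GREM1, FAP, BMPER and BCAS1, with 2 lower at low density), 7 with the methods' t-test (1 higher at low density) and 6 to 15 without each sample (1 to 3 higher and 4 to 12 lower at low density), with 6 each without low density replicate 1 and without high density replicate 1. Without scaling, 6 were higher and 2 lower at low density, and with scaling to the positive controls 5 and 5. Over the panel, calls lower at low density fell from 144 to 58 without scaling and 83 with the positive controls, with 236 and 248 higher against 188. The median difference of the silent genes, -0.09, was 0.09 without scaling, 0.03 with the positive controls, 0.0 after subtraction, and -0.17 to -0.09 without each sample. The cause was not tested. The labels do not say whether the replicate numbers pair the samples. Deviations from the group means correlated between same-numbered samples at -0.07, -0.07 and -0.05 over all genes. Over genes with a mean of at least 20 they correlated at 0.12, -0.11 and -0.03. With 3 samples a density, such values cannot show whether the samples were paired. With a replicate block 10 silent genes were called (325 over the panel), TPSB2 being lost. A filter at a mean of 20 left no silent gene. Count tests (edgeR, DESeq2) were not run. At 6 to 10 background counts a probe, levels under about 10.3 to 19.3 counts could not be told from background.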
